A study of Homo sapiens with 7 samples.

Results

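The promoter contacts of *TGFA* were set against those of *AREG*, *EREG*, *EPGN*, *BTC*, *HBEGF*, *EGF* and *NRG1* in H3K27ac HiChIP loop lists of 3 human cancer cell lines. HiChIP joins pieces of DNA that lie close together in the nucleus and keeps those bound to a chosen protein, here histone H3 acetylated at lysine 27, a mark of active promoters and enhancers. A loop is a pair of different DNA segments (anchors) on 1 chromosome joined by at least 3 read pairs, and it was taken as a loop of a ligand when an anchor overlapped a 500 bp window centred on any annotated start site of that gene. This rule gave 68 ligand loops. They were 35 of 163530 loops in Ishikawa cells (endometrial adenocarcinoma), 7 of 42027 in T-47D cells (ductal carcinoma of the breast) and 26 of 149226 in LNCaP cells (prostate carcinoma).

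The Ishikawa list combines 4 samples of this line, 2 given the vehicle DMSO and 2 given 10 nM 17β-estradiol (E2), each for 1 h. The T-47D list rests on 1 sample and the LNCaP list on 2, with no treatment named in their labels. Chromatin was cut with DpnII in Ishikawa and with MboI in the other lines, and sonication, read length and sequencing depth followed the same split, so they cannot be told apart from the cell line. Each line has a single loop list, and therefore no value has a replicate error and no test between lines was possible. Intervals in parentheses are exact 95% intervals that cover counting error only, and a ratio between lists compares those lists. Where a gene is said to have no loop, the list held no pair of different anchors at its promoters. Pairs below 3 read pairs or past the authors' false discovery threshold had been removed. A missing loop therefore does not show that contacts were absent.

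The lists held 1040329 read pairs for Ishikawa, 351260 for T-47D and 1805322 for LNCaP. Their anchors had median widths of 5.10, 2.61 and 3.23 kb, so an Ishikawa anchor can take in more of a locus. Promoter loops of genes that mark the lines followed the labels. *PAX8*, a factor of the Müllerian epithelia, had 162 read pairs in Ishikawa and none in the other lists. *GATA3*, a luminal breast factor, had 1063 in T-47D, 7 in Ishikawa and none in LNCaP, and *KLK3*, which encodes prostate-specific antigen, had 2936 in LNCaP, 6 in Ishikawa and none in T-47D.

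The ligands of the epidermal growth factor receptor (EGFR) are made as precursors anchored in the cell membrane, from which proteases of the ADAM family release the soluble factor. TGFα, amphiregulin and EGF bind EGFR, whereas betacellulin, HB-EGF and epiregulin also bind ERBB4, and neuregulin 1 binds ERBB3 and ERBB4. In the uterus, estrogen is known to raise EGFR ligands, which act on epithelial growth. *TGFA* has a particular place in this study because a promoter and 5 putative enhancers of it were targeted in Ishikawa cells with SID(4X)-dCas9-KRAB, a repressor guided to chosen DNA sites.

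The targeted regions were placed on GRCh37 by exact matches of the guides, and distances are given from the outermost *TGFA* start site at position 70781325 of chromosome 2, negative when upstream. Of the 24 guides, 23 matched chromosome 2 once. The regions spanned by the guide sites lay 44.4 kb inside the gene (chr2:70736803-70737101, intron of *TGFA*), at the promoter (chr2:70781116-70781365), and upstream at −42.5 kb (chr2:70823626-70824111, intergenic), −53.1 kb (chr2:70834252-70834609, intergenic), −54.3 kb (chr2:70835421-70835825) and −62.2 kb (chr2:70843286-70843742), the latter 2 in an intron of *ADD2*, the gene of β-adducin.

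The regions at −42.5 and −62.2 kb are shown because they were the targeted enhancers that lay in anchors joined to the *TGFA* promoter in both Ishikawa and T-47D. Each sequence is 300 bases of the plus strand centred on the guide sites (chr2:70823719-70824018 and chr2:70843365-70843664), and the capitals mark the target sites, with their PAM, of the 2 guides that fall within the window.
TGFA enhancer −42.5 kb: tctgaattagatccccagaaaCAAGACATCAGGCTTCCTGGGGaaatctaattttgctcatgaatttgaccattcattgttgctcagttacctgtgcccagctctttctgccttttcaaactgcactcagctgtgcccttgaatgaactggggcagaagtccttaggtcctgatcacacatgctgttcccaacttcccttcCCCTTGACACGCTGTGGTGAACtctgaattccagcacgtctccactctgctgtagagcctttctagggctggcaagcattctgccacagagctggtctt
TGFA enhancer −62.2 kb: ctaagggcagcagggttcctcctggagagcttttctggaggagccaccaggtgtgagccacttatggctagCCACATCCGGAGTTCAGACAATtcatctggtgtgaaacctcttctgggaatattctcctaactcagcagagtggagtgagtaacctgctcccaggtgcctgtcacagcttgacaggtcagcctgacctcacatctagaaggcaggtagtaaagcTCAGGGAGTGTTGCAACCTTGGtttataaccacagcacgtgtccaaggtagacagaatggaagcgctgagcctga

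The second of these windows holds a full palindromic estrogen response element, the sequence bound by the estrogen receptor, at chr2:70843550-70843562. It lies between the 2 marked guide sites and is given here in capitals with 20 bases on either side.
Estrogen response element −62.2 kb: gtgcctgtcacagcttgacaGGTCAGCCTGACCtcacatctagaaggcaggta
The search was for the arms GGTCA and TGACC with any 3 bases between them, which reads the same on both strands. Among the 9 distal anchors joined to *TGFA* in Ishikawa and the 3 in T-47D, the anchor around −62.2 kb was the one that held this element in either list. Of distal anchors of like width, 1.17% held one in Ishikawa and 0.926% in T-47D. None of the linked distal anchors of the other ligands held it, where 0.206% to 1.47% of distal anchors of like width did. A match describes these letters and does not show binding.

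A distal anchor is one that overlaps no promoter window of the 20163 protein-coding genes, and a gene was called linked when such an anchor was joined to an anchor over its promoter. In Ishikawa, 6 of the 8 ligands were linked (*TGFA*, *EREG*, *BTC*, *HBEGF*, *EGF* and *NRG1*), where 52.5% of all protein-coding genes were. In T-47D *TGFA* alone was linked, against 34.7% of all genes, and in LNCaP *HBEGF* and *EGF* were, against 52.4%. Counting any promoter loop, *HBEGF* and *EGF* joined *TGFA* in T-47D (3 of 8, against 49.2% of all genes) and *BTC* joined the linked pair in LNCaP (3 of 8, against 58.1%). In Ishikawa the 6 linked ligands were also those with any loop, against 57.3% of all genes. These counts depend on the unequal depth of the lists. Thinned to the T-47D total, 3 ligands were linked in Ishikawa (*TGFA*, *HBEGF* and *NRG1*), where 30.4% of all genes were, and *EGF* alone in LNCaP, against 28.0%. With a minimum of 10 read pairs *TGFA* and *HBEGF* were linked in Ishikawa, *TGFA* in T-47D and *EGF* in LNCaP, against 21.7%, 10.5% and 29.8% of all genes. At these settings no ligand was linked in all 3 lists, and *AREG* and *EPGN* had no loop in any. With 1 start site per gene *HBEGF* was linked in all 3, against 41.1%, 35.2% and 49% of all genes in Ishikawa, T-47D and LNCaP.

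Read pairs of a gene were summed and scaled to 1000000 read pairs in the loops of the list (RPM). The summed read pairs of all ligand loops came to 256 RPM for Ishikawa (226–288, from 266 read pairs), 108 for T-47D (76.6–148, from 38) and 80.3 for LNCaP (67.8–94.5, from 145). The Ishikawa share was 2.36 times that of T-47D (1.68–3.41) and 3.18 times that of LNCaP (2.59–3.92), whereas the T-47D and LNCaP shares were not separated by their counting error (ratio 1.35, 0.916–1.94). The order of Ishikawa and T-47D rested on inner start sites. With only the outermost start site of each gene it turned, to 92.3 RPM in Ishikawa against 108 in T-47D (ratio 0.853, 0.580–1.28), and the T-47D share was then 2.79 times that of LNCaP (1.83–4.20). After thinning, Ishikawa stood at 3.29 times T-47D (2.21–4.98) and 6.97 times LNCaP (3.85–13.7), and T-47D at 2.12 times LNCaP (1.10–4.33). These ratios rest on 80 ligand read pairs of 224689 left in Ishikawa, 38 of 351260 in T-47D and 13 of 254467 in LNCaP. The unequal totals enter the ratios, and the intervals do not cover the single thinning draw. *TGFA* and *HBEGF* gave 227 of the 266 read pairs in Ishikawa, *TGFA* gave 26 of the 38 in T-47D and *EGF* gave 107 of the 145 in LNCaP. The median ligand stood at the 50.4 percentile of all protein-coding genes by read pairs in Ishikawa and had no loop in T-47D or LNCaP.

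**Figure D1:**
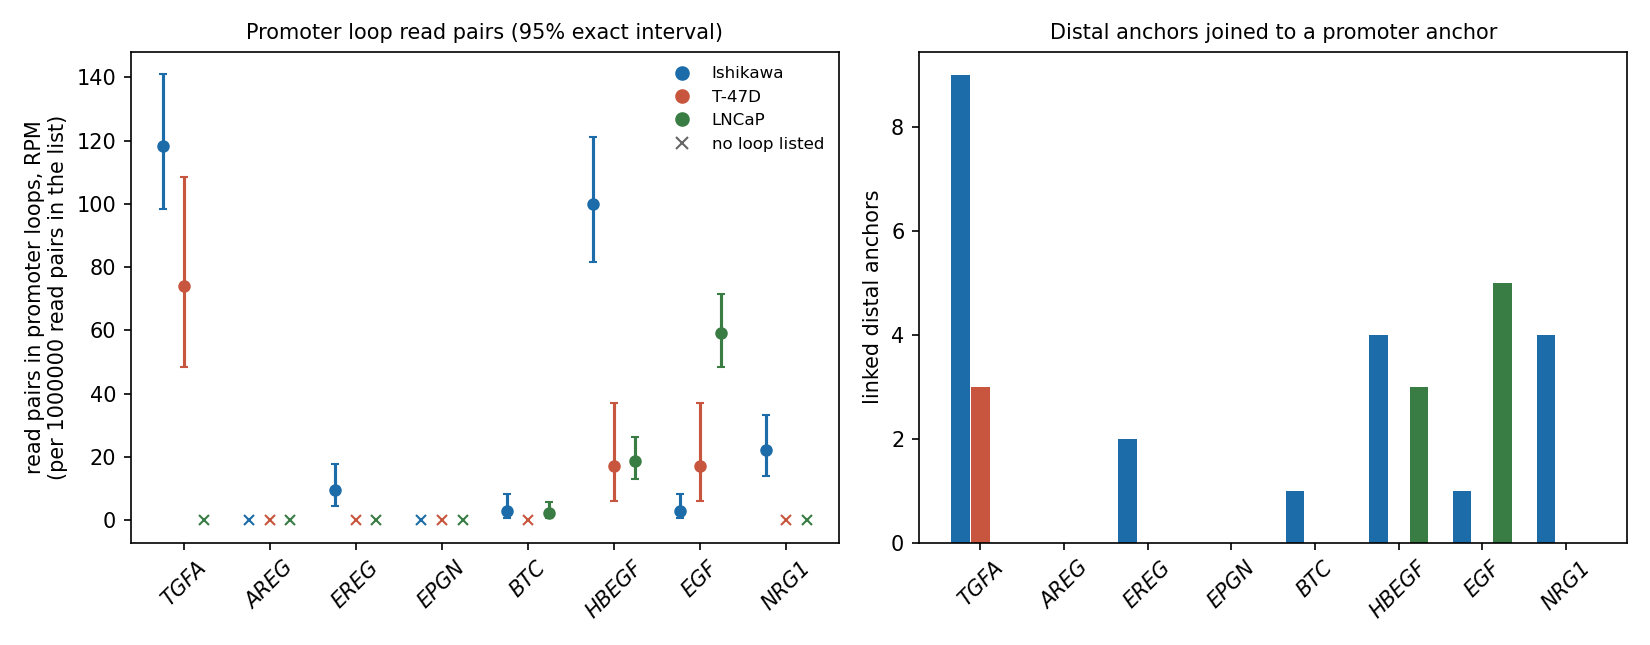
Left, read pairs in promoter loops of each ligand per 1000000 read pairs in the list (RPM) of Ishikawa, T-47D or LNCaP (points, with exact 95% intervals for counting error as bars; crosses mark a gene with no loop listed), over all start sites of each gene. Right, the number of distal anchors joined to a promoter anchor of each gene. *TGFA* and *HBEGF* lead in Ishikawa at 118 and 99.97 RPM, *TGFA* leads in T-47D at 74.0 and *EGF* leads in LNCaP at 59.3.

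*TGFA*, which encodes TGFα, had 15 loops with 123 read pairs in Ishikawa, 3 loops with 26 read pairs in T-47D and none in LNCaP. This was 118 RPM in Ishikawa (98.3–141) and 74.0 in T-47D (48.4–108), a ratio of 1.60 (1.04–2.54). With only the outermost start site the direction turned, to 62.5 RPM in Ishikawa against 74.0 in T-47D, and the 2 lists were not separated (0.844, 0.528–1.39). After thinning, 45 read pairs were left in Ishikawa against 26 in T-47D. The ratio was then 2.71 (1.63–4.57), on unequal totals of 224689 and 351260 read pairs. The gene lay at the 95.8 percentile of protein-coding genes in Ishikawa and at the 77.3 percentile in T-47D. It had 9 linked distal anchors in Ishikawa and 3 in T-47D, the highest number among the ligands in both lists.

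In Ishikawa the *TGFA* start sites fell in 2 anchors. The outer one (chr2:70778958-70788498) covers 6 of the 7 start sites and carried 59 read pairs in 8 loops. The inner one (chr2:70685893-70700495) covers the start site at position 70692865, within the gene, and carried 64 read pairs in 7 loops. The loop that joins both anchors, with 6 read pairs, is counted under the inner one. T-47D used the outer start sites only, through an anchor at chr2:70779136-70783114.

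The outer promoter anchor holds 2 RefSeq start sites. The 250 bases before the outer of them (chr2:70780959-70781208, minus strand) are shown because this is the *TGFA* promoter that was joined in both lists, with the GC boxes in capitals (GGGCGG or its reverse CCGCCC).
TGFA promoter: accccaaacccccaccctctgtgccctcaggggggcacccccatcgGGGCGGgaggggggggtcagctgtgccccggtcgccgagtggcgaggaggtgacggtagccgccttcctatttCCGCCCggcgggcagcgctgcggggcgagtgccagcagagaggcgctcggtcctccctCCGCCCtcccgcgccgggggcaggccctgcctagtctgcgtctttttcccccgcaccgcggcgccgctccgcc
Its 300-base window, which runs 50 bases past the start, held 4 GC boxes and was 75.3% GC, where the median of 34796 RefSeq promoters was 58.7% and 44.9% of them held a GC box. The window of the inner RefSeq start, chr2:70780529-70780828, was 63.0% GC and held none.

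Upstream of *TGFA*, 4 anchors were linked in Ishikawa with 46 read pairs. The anchor at −62.2 kb (chr2:70836772-70850211, intron of *ADD2*) was joined to both promoter anchors, to the outer one by 13 read pairs and to the inner one by 8. The anchor at −41.2 kb (chr2:70818892-70826162) was joined to the outer promoter by 13. The anchors at −27.5 and −17.9 kb were joined to it by 3 and 9. In T-47D the 2 upstream links fell on the same places, at −62.1 kb (chr2:70841829-70845049) with 14 read pairs and at −42.8 kb (chr2:70823043-70825284) with 8. Both Ishikawa anchors of this pair had 13 read pairs with the outer promoter.

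Within the gene, 3 anchors were linked in Ishikawa with 46 read pairs in all, and none was in T-47D. The strongest *TGFA* loop of any list joined the inner promoter to an intronic anchor 63.4 kb from the outermost start (chr2:70710136-70725808) with 22 read pairs, and the outer promoter reached the same anchor with 11. The intronic anchors at 37.8 and 22.7 kb had 10 and 3 read pairs. Downstream of the gene, Ishikawa linked anchors at 161 and 225 kb with 9 and 13 read pairs. T-47D had a single downstream link, at 412 kb, with 4.

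The Ishikawa list holds up to 4 rows for an anchor pair, and nothing states which samples the rows stand for, so they were summed and never assigned. The loop with 22 read pairs was recorded in 4 rows of 7, 6, 5 and 4. The loops of 13 read pairs to the outer promoter were recorded in 3 rows each, as 5, 5 and 3 from −62.2 kb and as 6, 4 and 3 from −41.2 kb. Of the 15 *TGFA* loops 8 were in more than 1 row, and of all 35 ligand loops in this list 51.4% were, against 33.8% of all its loops.

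**Figure D2:**
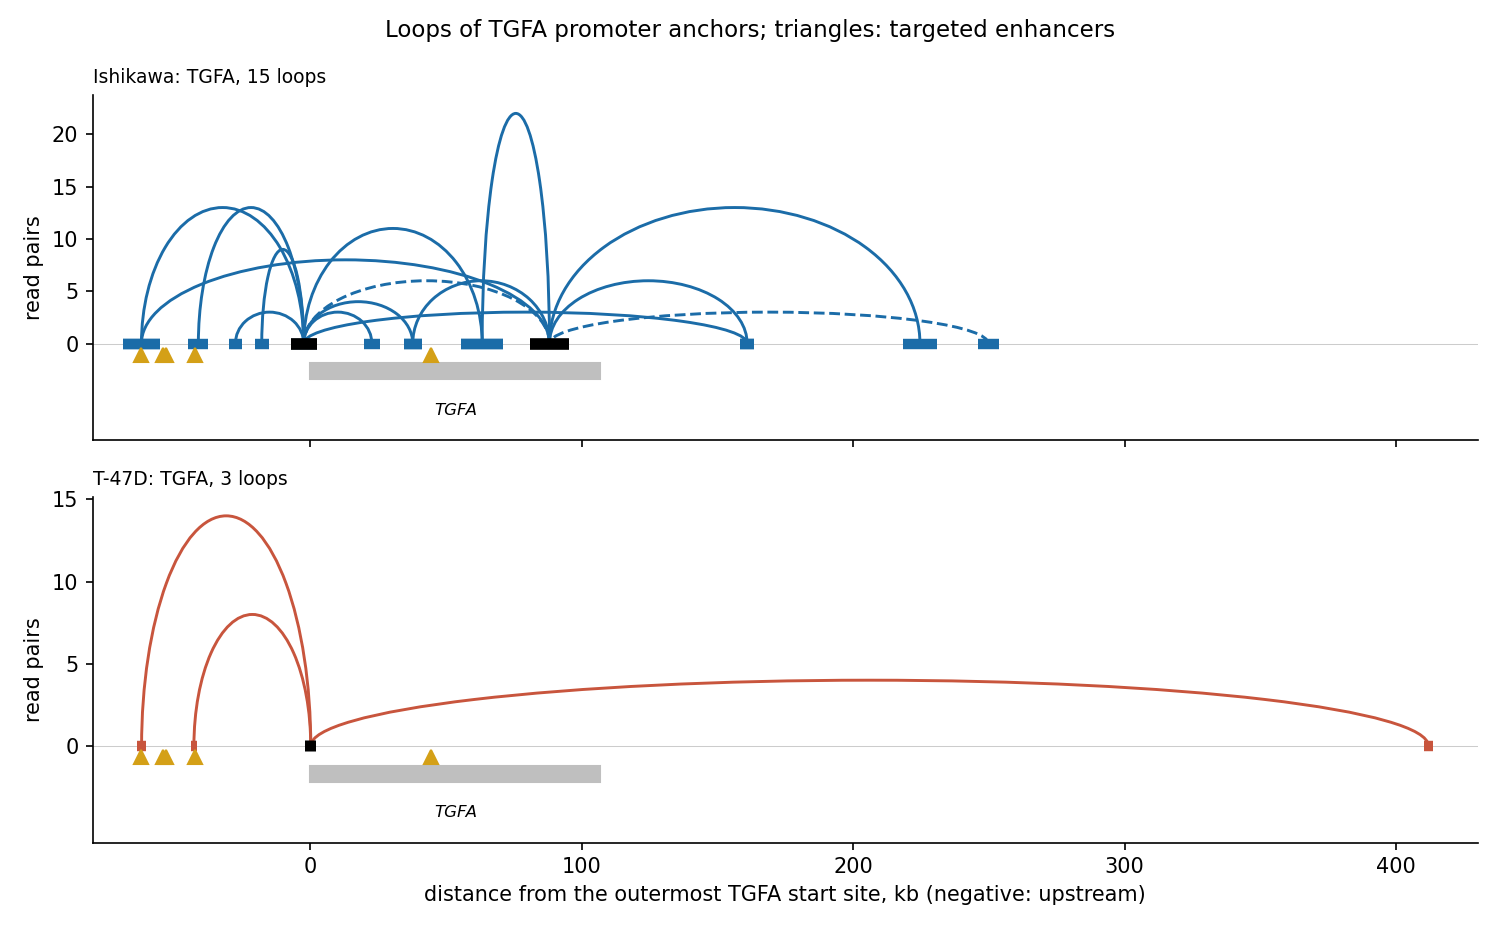
Loops of *TGFA* promoter anchors in Ishikawa (top) and T-47D (bottom), drawn as arcs over the distance from the outermost start site in kb, with arc height giving read pairs (the scales differ). Black bars are promoter anchors, coloured bars are their partners, dashed arcs join another promoter anchor, the grey bar is the gene, and triangles are the 5 targeted enhancers. Both lists join the promoter to anchors over the −42.5 and −62.2 kb enhancers, and only Ishikawa has loops into the gene body.

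The targeted enhancers differed in how the loop lists held them. The region at −62.2 kb lay in an anchor with 21 read pairs to *TGFA* promoters in Ishikawa and 14 in T-47D. The region at −42.5 kb lay in an anchor with 13 and 8. The regions at −53.1 and −54.3 kb shared 1 Ishikawa anchor (chr2:70833686-70836265) that was joined to no *TGFA* promoter. Its sole partner was the −62.2 kb anchor, with 14 read pairs in 3 rows, and the T-47D list had no anchor over either region, the nearest being 7.22 and 6.004 kb away. The intronic region at 44.4 kb lay in no anchor of any list, and the nearest Ishikawa anchor began 3.15 kb from it.

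The linked anchors of *TGFA* in Ishikawa were also joined to one another. Of 36 possible pairs among the 9 anchors, 17 were joined, with 162 read pairs in all. The 13 loops between these anchors and the 2 *TGFA* promoter anchors had 114 read pairs, from fewer possible pairs. The strongest such pair was −41.2 with −62.2 kb, with 29 read pairs in 4 rows, and the same 2 places were joined in T-47D by 5. The −62.2 kb anchor had 15 loops and 148 read pairs in total, of which 14.2% went to *TGFA* promoters. In T-47D, 73.7% of the 19 read pairs of the corresponding anchor did.

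Most linked anchors of *TGFA* were linked to no second gene. In Ishikawa 6 of 9 had *TGFA* as their single linked gene, and for 7 of 9 it was the nearest start site, the exceptions being −62.2 kb, nearest to *ADD2*, and 225 kb, nearest to *FAM136A*. *FAM136A*, a gene on the 3′ side of *TGFA*, was linked to 3 of the 9 anchors by 15, 3 and 3 read pairs, and its promoter was joined to the inner *TGFA* promoter by 3. It was the single promoter partner of *TGFA* in any list.

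LNCaP had no loop anchor over *TGFA* or within 100 kb of it. The nearest anchor to any *TGFA* start site window was 162 kb away, on the side of the 3′ end, and the nearest on the other side began 439.5 kb beyond the outermost start. None of the 9 Ishikawa linked anchors overlapped an LNCaP anchor. The surroundings were not empty of loops, as 51 LNCaP loops lay within 500 kb of *TGFA*, against a median of 84 over all genes.

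Against loops of the same list within 25% of their span, 10 of 15 Ishikawa *TGFA* loops had more read pairs than the median loop. The loop of 22 read pairs stood at the 96.6 percentile of 25615 such loops, that of 13 read pairs over 136 kb at 97.1, and those of 13 read pairs from −62.2 and −41.2 kb at 95.1 and 92.7. In T-47D the −62.1 kb loop stood at the 89.7 percentile and the −42.8 kb loop at the 64.4. These are ranks among loops that passed the minimum, so they say nothing of pairs that were not listed.

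The 3 genes whose percentiles over the 3 lists were nearest to those of *TGFA* were *ADGRF1*, an adhesion G protein-coupled receptor, *PKD1L2*, a polycystin-like gene, and *ST6GALNAC2*, a sialyltransferase. *ADGRF1* had 140 read pairs in Ishikawa, 26 in T-47D and none in LNCaP. *PKD1L2* had 111, 26 and none, and *ST6GALNAC2* had 97, 27 and none. The measure was the Euclidean distance between percentiles over 3 lists, and it selects genes for a like pattern.

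*HBEGF*, which encodes a heparin-binding ligand, was the gene next to *TGFA* in Ishikawa, with 11 loops and 104 read pairs (99.97 RPM, 81.7–121), and the intervals of these 2 genes overlapped. In T-47D it had 2 loops with 6 read pairs (17.1, 6.27–37.2) and in LNCaP 9 loops with 34 (18.8, 13.0–26.3). The Ishikawa share was 5.31 times that of LNCaP (3.57–8.07) and 5.85 times that of T-47D (2.600–16.3), while T-47D and LNCaP were not separated (0.907, 0.311–2.19). Most of the Ishikawa signal, 85 of 104 read pairs, lay in loops listed under the anchor over the inner start at position 139714715. With only the outermost start site *HBEGF* had 17.3 RPM in Ishikawa, 1.01 times T-47D (0.385–3.12) and 2.40 times LNCaP (1.11–5.33).

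All linked anchors of *HBEGF* lay downstream of the gene, unlike those of *TGFA*, which lay on both sides and inside. In Ishikawa they were at 40.0, 76.7, 115 and 121 kb from the outermost start, with 17, 25, 7 and 11 read pairs. The first is intergenic and the others lie in introns of *CYSTM1*, with that at 76.7 kb also in an intron of *PFDN1*, which encodes a prefoldin subunit. None of the 4 was nearest to *HBEGF*, and none overlapped an anchor of T-47D or LNCaP. The gene's own start sites lay in 3 anchors, and the loops among them had 19 and 12 read pairs.

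In LNCaP the linked anchors of *HBEGF* were at 18.0, 23.3 and 85.03 kb, with 8, 8 and 5 read pairs. Those at 18.0 and 23.3 kb overlapped the 11.2 kb wide Ishikawa anchor over the inner start (chr5:139704514-139715733). Ishikawa could therefore not list these places as distal, and the distances of the 2 lists cannot be compared. All linked LNCaP anchors of *HBEGF* were shared with many genes, 7 to 15 others each, and *HBEGF* took between 4.31% and 9.76% of their read pairs. None of its 9 LNCaP loops exceeded the median of loops of like span, although 117 loops touched the gene or the 100 kb on either side, the highest number for any ligand in any list. In Ishikawa 8 of its 11 loops exceeded that median.

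*HBEGF* was the sole ligand with a promoter partner found in all 3 lists. The partner was *ANKHD1*, which encodes an ankyrin repeat protein (its starts are shared with the readthrough gene *ANKHD1-EIF4EBP3*), with 7 read pairs for Ishikawa, 3 for T-47D and 7 for LNCaP. The Ishikawa contact was at an inner start at −186 kb from *HBEGF*, and those of T-47D and LNCaP were at −55.1 and −54.4 kb. *PURA* was a partner in T-47D and LNCaP, with 3 and 6 read pairs, and *SLC4A9*, an anion exchanger, in Ishikawa with 6.

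*EGF*, the founding member of the family, had its highest share in LNCaP, where *TGFA* had no loop. It had 16 loops with 107 read pairs in LNCaP (59.3 RPM, 48.6–71.6), 2 loops with 6 in T-47D (17.1, 6.27–37.2) and 1 loop with 3 in Ishikawa (2.88, 0.595–8.43). The LNCaP share was 3.47 times that of T-47D (1.54–9.67) and 20.6 times that of Ishikawa (6.85–101). The ratio to Ishikawa depended on the promoter window. An Ishikawa anchor ended 0.349 kb before the outermost start, outside the 500 bp window. With a 2 kb window *EGF* had 9 read pairs in Ishikawa, and the LNCaP share was 6.85 times the Ishikawa share (3.48–15.4). With only the outermost start site and the 500 bp window *EGF* had no loop in Ishikawa, and LNCaP and T-47D were not separated (1.85, 0.799–5.25). It was the leading ligand in LNCaP, with an interval above those of *HBEGF* and *BTC*.

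In LNCaP the *EGF* start sites fell in 2 anchors, an outer one (chr4:110832935-110838750) with 57 read pairs and an inner one (chr4:110886841-110891390) over the start at position 110889961, with 50. They were joined to each other by 16 read pairs, the strongest *EGF* loop, which is counted under the outer anchor. All 5 linked anchors were upstream. The nearest, at −38.6 kb (chr4:110793652-110797310, intergenic), was joined to both promoter anchors by 12 read pairs each. The others, at −53.2, −302, −470 and −500 kb, had 3, 3, 5 and 7 read pairs, and lay in introns of *LRIT3*, *MCUB* and *SEC24B* or, for the last, between genes.

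Contacts with other promoters made up more of the *EGF* signal in LNCaP than of the *TGFA* signal in Ishikawa. The gene and the list cannot be told apart here. *HBEGF*, with loops in both lists, had 13 of 104 read pairs in such contacts in Ishikawa and 13 of 34 in LNCaP. In LNCaP 8 of 16 loops, with 49 of 107 read pairs, joined *EGF* to another gene's promoter, whereas in Ishikawa 1 of 15 *TGFA* loops did, with 3 of 123 read pairs. The leading partners were *SEC24B*, a COPII coat subunit, with 15 read pairs, and *GAR1*, a small nucleolar ribonucleoprotein, and *PLA2G12A*, a phospholipase, with 14 each. T-47D joined *EGF* to *GAR1* and *PLA2G12A* as well, by 3 read pairs each, and to no distal anchor. The *EGF* loops in LNCaP had a median span of 234 kb, against 59.8 kb for *TGFA* in Ishikawa. The medians of all loops were 113 kb in LNCaP and 37.0 kb in Ishikawa.

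The promoters of *HBEGF* and *EGF* are shown because these genes led after *TGFA*, in different lists. Capitals mark GC boxes in the first (chr5:139726189-139726438, minus strand) and the CCAAT box, CCAAT or ATTGG, in the second (chr4:110833789-110834038, plus strand).
HBEGF promoter: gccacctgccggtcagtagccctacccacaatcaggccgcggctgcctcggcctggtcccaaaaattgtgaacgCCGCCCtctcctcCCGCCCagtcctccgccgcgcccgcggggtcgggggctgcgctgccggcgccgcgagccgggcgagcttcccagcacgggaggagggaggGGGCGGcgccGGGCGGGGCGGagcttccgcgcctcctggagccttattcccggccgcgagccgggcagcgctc
EGF promoter: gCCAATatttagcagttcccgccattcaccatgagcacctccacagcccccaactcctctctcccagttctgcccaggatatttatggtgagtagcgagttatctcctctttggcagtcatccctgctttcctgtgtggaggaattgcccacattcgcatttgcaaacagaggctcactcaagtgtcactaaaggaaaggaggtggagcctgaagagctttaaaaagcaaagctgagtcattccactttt
The *HBEGF* window of 300 bases held 5 GC boxes and was 75.0% GC, close to *TGFA*, and that of *EGF* held none and was 46.7% GC. The *HBEGF* window shown is at its outermost start, which carried little of its Ishikawa lead. There, 6 read pairs were listed under the anchor over that start and 85 under the anchor over the inner start at position 139714715. The loop of 12 read pairs between these anchors is counted under the inner one. A CCAAT box was found in 34.6% of all RefSeq promoters. A TATA box (TATAAA or TTTATA), present in 11.6% of all promoters, was in the windows of *AREG*, *EREG* and *EPGN* and in none of the other matched ligands.

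**Figure D3:**
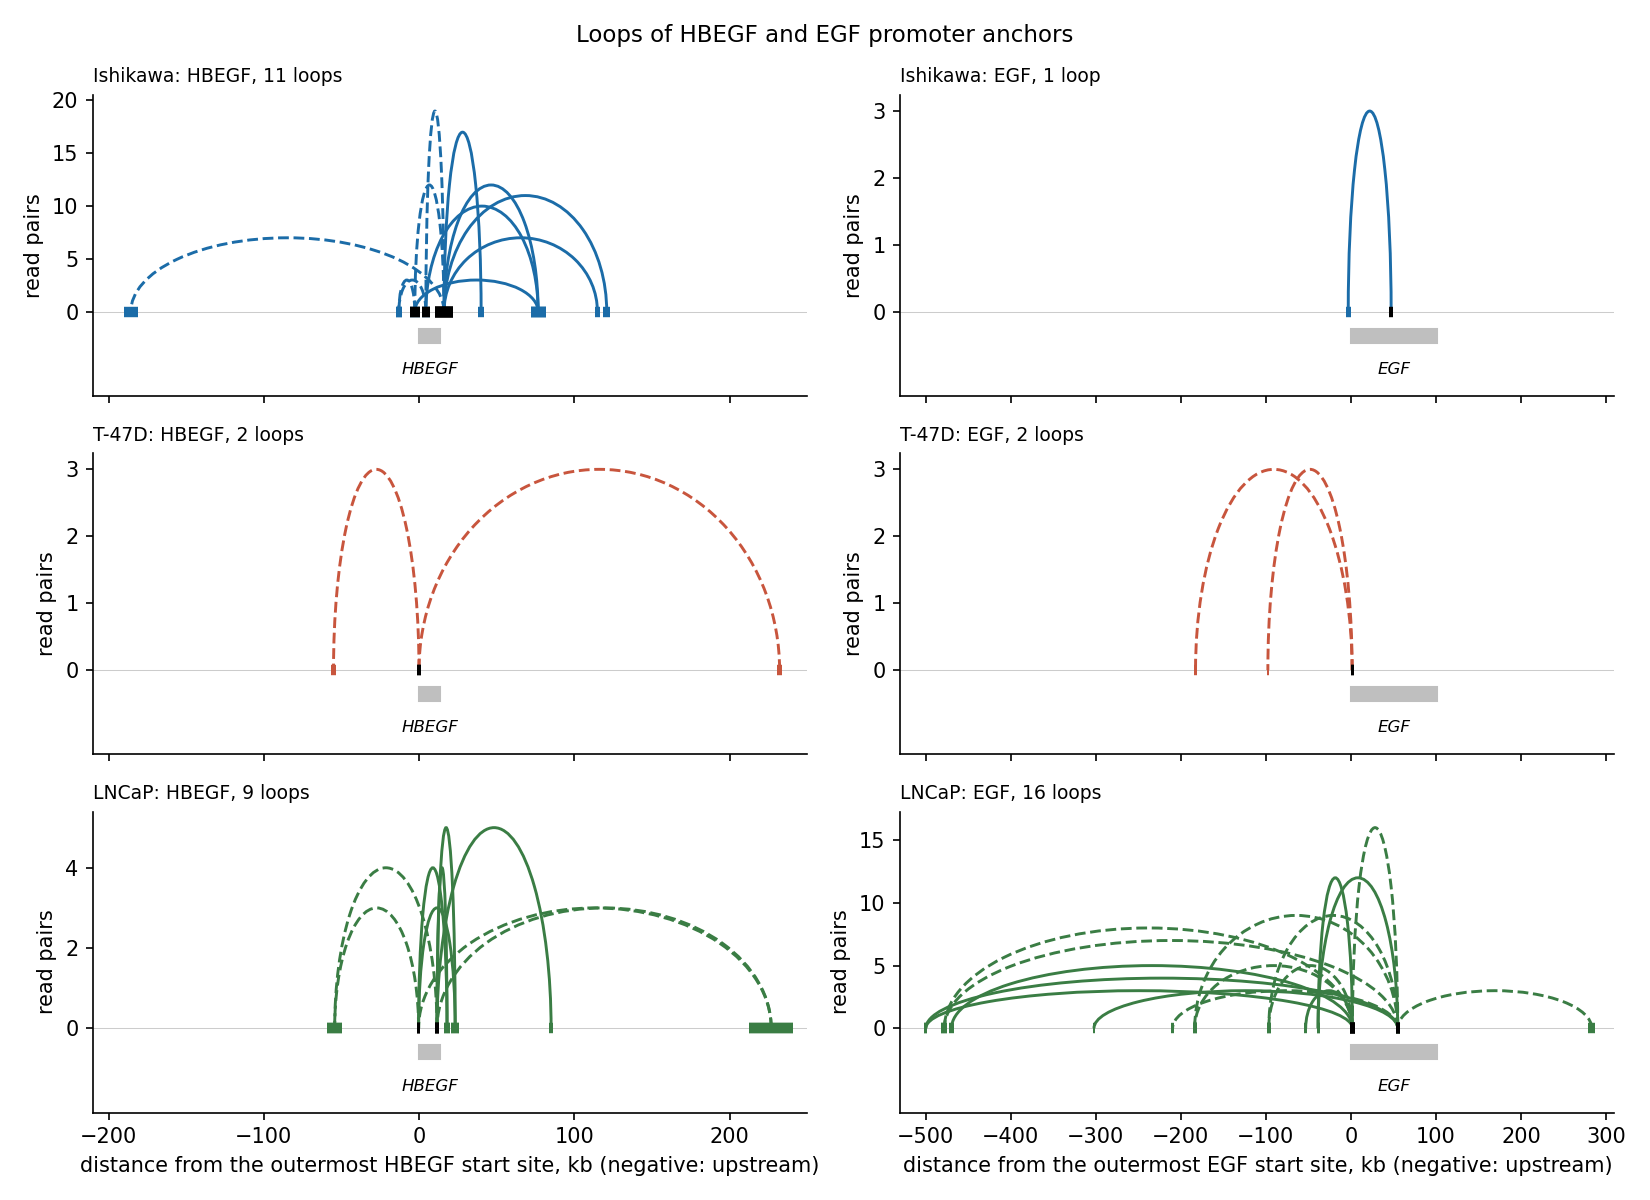
Loops of *HBEGF* (left) and *EGF* (right) promoter anchors in Ishikawa, T-47D and LNCaP, over the distance from the outermost start site in kb, with arc height giving read pairs (the scales differ). Black bars are promoter anchors, coloured bars are partners, dashed arcs join another promoter anchor and the grey bar is the gene. Solid arcs of *HBEGF* run downstream, and those of *EGF* in LNCaP run upstream to 500 kb.

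*NRG1*, the neuregulin gene that spans 1216 kb, had 5 loops with 23 read pairs in Ishikawa (22.1 RPM, 14.0–33.2) and none in the other lists. All 4 of its linked anchors lay in its own introns. The strongest loop had 9 read pairs in 2 rows, and the longest reached 635 kb with 3. Loop anchors covered 24 of its 32 start sites in Ishikawa and 0 in T-47D and LNCaP, where the nearest anchor was 494 kb from any start site window.

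*EREG*, *AREG*, *EPGN* and *BTC* lie together on chromosome 4 (chr4:75174187-75719733). *EREG*, the gene of epiregulin, had 2 loops in Ishikawa, 1 of 6 read pairs over 8.73 kb inside the gene and 1 of 4 read pairs to an anchor at −69.3 kb in an intron of *MTHFD2L*. *BTC*, the gene of betacellulin, had 1 Ishikawa loop of 3 read pairs to an anchor at −18.9 kb and 1 LNCaP loop of 4 read pairs to the shared promoter of *RCHY1* and *THAP6*, 742 kb away. The *EREG* interval (9.61 RPM, 4.61–17.7) overlapped those of *NRG1*, *BTC* and *EGF* in Ishikawa, whereas *NRG1* (14.0–33.2) lay above *BTC* and *EGF* (2.88 each, 0.595–8.43).

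*AREG*, which encodes amphiregulin, and *EPGN*, which encodes epigen, had no loop, but the cluster had loops around them. With both anchors inside the cluster there were 34 loops with 166 read pairs in Ishikawa, 7 with 45 in T-47D and none in LNCaP, and of these 1 touched any promoter, in Ishikawa. In the 100 kb downstream of the *AREG* start there were 5 loops with 24 read pairs in Ishikawa, the first anchor beginning at 14.7 kb. T-47D had 3 loops with 29 read pairs between 20.1 and 36.8 kb, the strongest with 16. The nearest anchor to an *AREG* start site window was at 10.97 kb for Ishikawa, 16.4 kb for T-47D and 283 kb for LNCaP. For *EPGN* these distances were 4.40, 10.96 and 147 kb.

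The *AREG* promoter is shown as the case of a ligand without a promoter loop (chr4:75310603-75310852, plus strand), with its TATA box and GC box in capitals.
AREG promoter: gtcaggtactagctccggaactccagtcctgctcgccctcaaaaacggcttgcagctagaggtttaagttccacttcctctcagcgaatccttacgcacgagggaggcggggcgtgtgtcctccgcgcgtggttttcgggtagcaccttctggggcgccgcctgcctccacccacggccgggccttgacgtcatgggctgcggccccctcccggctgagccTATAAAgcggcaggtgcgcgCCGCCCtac

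The median span of the ligand loops was 50.5 kb for Ishikawa, 99.1 kb for T-47D and 169 kb for LNCaP, in the same order as all loops of these lists (37.0, 85.8 and 113 kb). The share of ligand loops at the minimum of 3 read pairs was 34.3% for Ishikawa, 57.1% for T-47D and 34.6% for LNCaP, against 45.5%, 29.7% and 25.9% of all loops. Thus in T-47D and LNCaP more of the ligand loops than of all loops were at the limit of what the lists hold, and in T-47D all 4 such loops belonged to *HBEGF* and *EGF*.

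**Figure D4:**
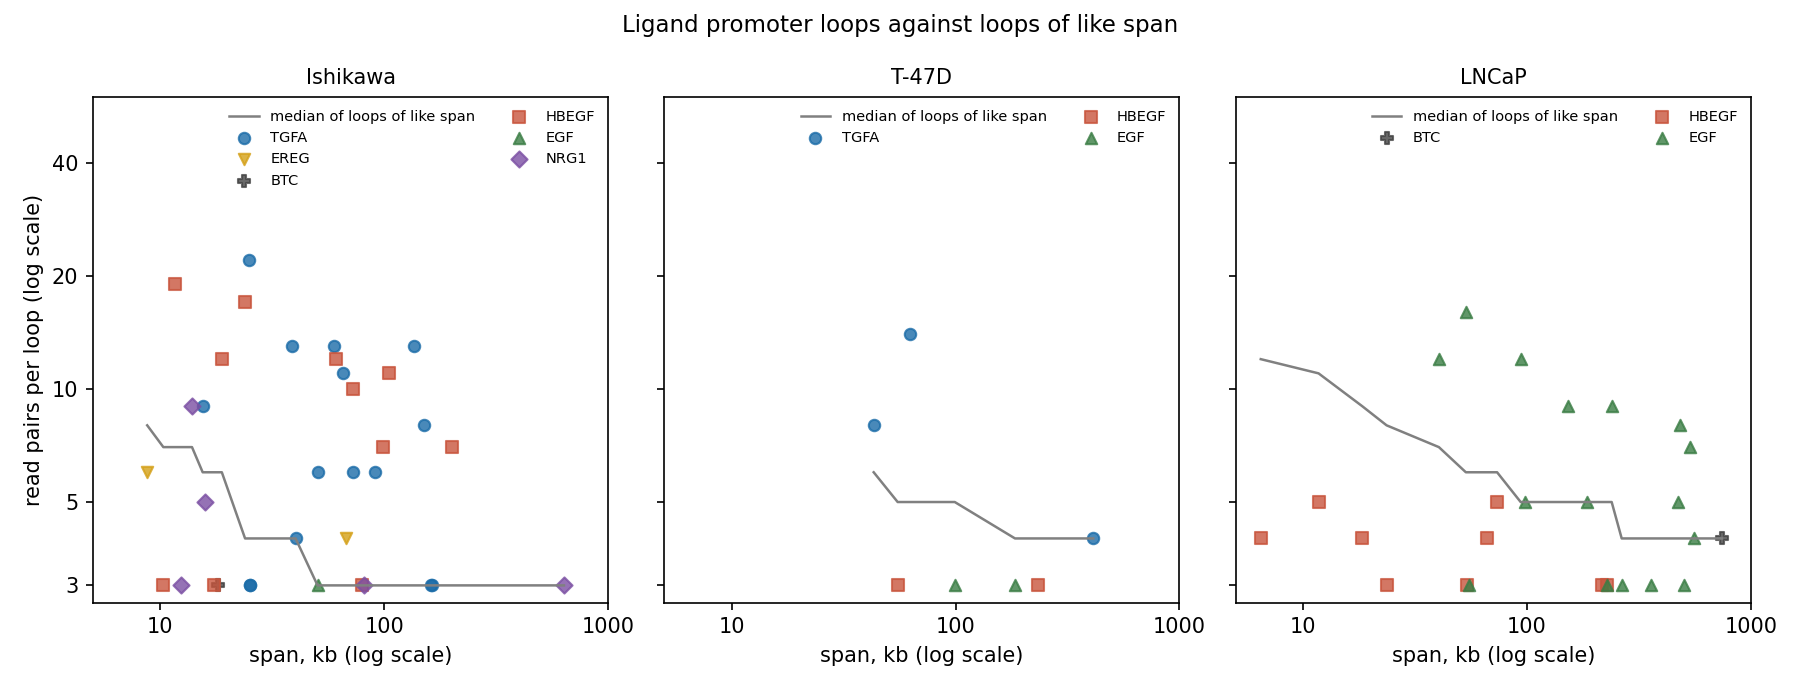
Read pairs of each ligand loop (log scale) against its span in kb (log scale) in Ishikawa, T-47D and LNCaP, with symbols for genes. The grey line is the median of all loops of the list within 25% of each span. In Ishikawa 10 of 15 *TGFA* loops and 8 of 11 *HBEGF* loops lie above the line, and in LNCaP 8 of 16 *EGF* loops and none of the 9 *HBEGF* loops do.

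The receptors, proteases and adaptors with which these ligands work were read from the same lists. Of 21 genes of the EGFR pathway, 17 were linked for Ishikawa, 14 for T-47D and 14 for LNCaP (81.0%, 66.7% and 66.7%, against 52.5%, 34.7% and 52.4% of all genes). *EGFR*, *ERBB2* and *ERBB3* were linked in all 3 lists, and *ERBB4* in Ishikawa and T-47D. *EGFR* had 24.99 RPM for Ishikawa (16.3–36.6), 79.7 for T-47D (53.0–115) and 93.6 for LNCaP (80.0–109). *ERBB2*, the receptor without a known ligand of its own, had 112, 1116 and 475.

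All 5 adaptors (*GRB2*, *SHC1*, *GAB1*, *SOS1* and *PLCG1*) were linked in every list. Among the genes that release the ligands, *ADAM10* was linked in all lists, and *ADAM17*, the protease known to cut TGFα, in Ishikawa and LNCaP. *RHBDF2*, which carries ADAM17 to the cell surface, had 148 read pairs in Ishikawa and none in the other lists. *RHBDF1*, listed in the same class, went the other way. It had 5 read pairs in Ishikawa (4.81 RPM), 160 in T-47D (456 RPM) and 226 in LNCaP (125 RPM). Of the feedback genes, *LRIG1*, an inhibitor of the receptors, had 1454 read pairs in LNCaP (805 RPM), 70 in T-47D (199 RPM) and none in Ishikawa. *ERRFI1*, an EGFR inhibitor, had 991, 32 and 24 read pairs in these lists, or 549, 91.1 and 23.1 RPM. The rest of the feedback genes were not highest in LNCaP. *CBL* had 13.8 RPM in LNCaP, 157 in T-47D and 87.5 in Ishikawa. *SPRY2* and *SPRY4* had loops in Ishikawa alone, with 3 and 14 read pairs. Among the other neuregulins *NRG4* was linked in Ishikawa and T-47D, and *NRG2* and *NRG3* had no loop in any list.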

How the data were processed

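H3K27ac HiChIP was done in 7 samples of 3 established cell lines. Per the methods and the submitters' processing notes, the authors aligned reads to hg19 with HiC-Pro, called loops with hichipper, and removed loops below a minimum of 3 reads or past their false discovery threshold. The deposited counts are read pairs per anchor pair without any scaling, in 1 pooled list per line, so they have no replicate error. The LNCaP list holds no pair of an anchor with itself. Rows of 1 Ishikawa anchor pair were summed. Promoters were 500 bp windows at every start site of 20163 protein-coding genes (GENCODE v44 lifted to GRCh37), and percentiles rank genes by promoter loop read pairs. RefSeq promoter windows that matched GRCh37 exactly were found for 7 ligands. Exact Clopper-Pearson and exact conditional intervals (95%) were computed with SciPy 1.17.1 in Python 3.11.15. Named genes were all ligands, their promoter partners, hosts of linked anchors, 21 pathway genes, 3 line markers and the 3 genes most like *TGFA*. Members and lists were chosen with earlier results of these data known. Alternatives were minima of 5 and 10 read pairs, promoter windows of 2 kb, 1 start site per gene, thinning to 351260 read pairs, Ishikawa pairs in more than 1 row, and spans of 5 kb to 2 Mb. The link procedure was tested on simulated data.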

Additional observations from a re-analysis of the deposited data

Results flagged for a closer look

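Rows that join an anchor to itself lie outside the loops described above, and the LNCaP list holds none. Those at ligand promoters exceeded 3 read pairs in 7 cases. In Ishikawa the promoter anchors of *TGFA* had 47 such read pairs, those of *HBEGF* 31, *NRG1* 17, *EGF* 7 and *EREG* 4. In T-47D *TGFA* had 37 and *EGF* 9, and no other ligand had any.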

How the results depend on the processing

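Over 95 recomputed values, 69 stayed within 1.5 times the count or within the counting interval and 26 moved. In all alternatives *TGFA* stayed linked in Ishikawa and T-47D and without a loop in LNCaP. With a minimum of 5 read pairs, the share in RPM became 147 for *TGFA* and 305 for all ligands in Ishikawa and 61.4 for all ligands in LNCaP. With a minimum of 10, 2 ligands were linked in Ishikawa and 1 in LNCaP, *TGFA* had 4 linked anchors in Ishikawa and 1 in T-47D, its Ishikawa share was 156, the ligand shares were 331 for Ishikawa, 70.5 for T-47D and 30.9 for LNCaP, and the LNCaP median span was 53.3 kb. With 1 start site per gene, the Ishikawa shares fell to 62.5 for *TGFA* and 92.3 for all ligands and the LNCaP ligand share to 38.8, since inner starts no longer counted. Both Ishikawa shares lay below the T-47D values of 74.0 and 108. In T-47D 2 ligands were then linked, *TGFA* and *HBEGF*, so that *HBEGF* was linked in all 3 lists. After thinning to 351260 read pairs, 3 ligands were linked in Ishikawa and 1 in LNCaP, and *TGFA* had 5 linked anchors in Ishikawa. Its share there was 200.3, the ligand shares were 356 in Ishikawa and 51.1 in LNCaP, and the LNCaP median span was 53.3 kb. These shares were of the 224689 and 254467 read pairs left in loops of at least 3. Shares under the minima of 5 and 10 were likewise of the read pairs left. With Ishikawa pairs in more than 1 row, *TGFA* had 5 linked anchors and a share of 143, and all ligands 309. The 2 kb window and the span limits moved none of these values, although the 2 kb window raised *EGF* in Ishikawa to 9 read pairs. Depth limits the counts of linked genes, since loops of few read pairs drop below 3 on thinning. No paired analysis was possible because each line has 1 pooled list and its columns carry no replicate numbers.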
